A study of Mus musculus with 6 samples.

Results

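Nrf2 (gene Nfe2l2), its inhibitor Keap1 and 8 genes that Nrf2 is known to switch on were followed in the ovaries of mouse embryos at 13.5 days post coitum (dpc). The 10 genes were chosen by name and matched to the identifiers of the count table, which holds 48709 genes. All 10 were found and all 10 passed the expression filter, which kept 20167 genes. Gonads of CD1 embryos were pooled over litters, and RNA was sequenced from 3 control pools and 3 pools exposed in utero to acetaminophen (APAP) and ibuprofen (IBU). Dams were gavaged 4 times a day, every 3 h, starting at 10.5 dpc and ending at 13.5 dpc. Exposed dams were given daily doses of 30 mg/kg APAP and, in alternation with it, 15 mg/kg IBU. Both drugs were prepared in ethanol and diluted in phosphate-buffered saline, and control dams were given ethanol without the drugs. Each library came from the pooled gonads of its own set of litters. Sample titles of the exposed pools name IBU only, while their exposure label names both drugs. Whole ovaries were used, so fewer cells of a type and less RNA per cell cannot be told apart in any value below.

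Keap1 is the adaptor by which a Cul3 ubiquitin ligase marks Nrf2 for degradation. Electrophiles and oxidants modify cysteines of Keap1, after which Nrf2 accumulates, pairs with small Maf proteins and binds antioxidant response elements near genes of glutathione synthesis, thioredoxin recycling, quinone reduction and haem breakdown. NAPQI, the reactive product of APAP oxidation, is a textbook electrophile of this kind in liver, where it is removed by glutathione. Much of the regulation of Nrf2 is at the protein level, and its target transcripts are commonly used as the readout of its activity.

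Total counts ran from 37811968 to 48954631 per library. Fetal germ cell markers (8 of 8) and fetal ovarian somatic markers (9 of 9) were above 0 in every library, with summed levels of 1248 to 1639 and 854 to 1159 CPM (counts scaled to a common, TMM-normalised library size), against 19.4 to 43.1 CPM for 6 fetal testis markers. Replicate 3 of each group stood apart from the other libraries. The summed level of 20 liver markers reached 2224 CPM (control) and 3603 CPM (APAP+IBU) in these, whereas the other 4 libraries had 211 to 602 CPM, and all 20 markers were above 0 in every library. Markers of other cell types also differed between libraries. The 12 erythroid markers summed to 7060 to 17236 CPM in controls and 3191 to 10241 CPM in exposed ovaries, and the 9 spermatid markers to 37.5 to 138 CPM and 1.72 to 5.52 CPM. The 8 endothelial markers summed to 498 to 542 CPM in controls and 416 to 470 CPM in exposed ovaries, without overlap, although only 1 of the 8 did not overlap singly. The 6 mesonephric markers summed to 100 to 174 CPM and 86.6 to 141 CPM. The part of these RNAs in the results was not tested. Results are therefore given with all 6 libraries and again with replicates 1 and 2 of each group.

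Over all 6 libraries, none of the 10 genes differed between APAP+IBU and control ovaries beyond the spread between libraries. In edgeR's quasi-likelihood test, with p-values adjusted over all tested genes by the Benjamini-Hochberg method, 0 of the 10 passed an adjusted p of 0.05, and among all tested genes 0% did. At an unadjusted p under 0.05 the test also called 0 of the 10, against 6.22% of all tested genes. DESeq2 without shrinkage called 0 of the 10 at either limit, and over all genes it called 0.953% at the adjusted and 7.64% at the unadjusted one. The log2 fold change was positive for 4 of the 10 genes, as for 49.4% of all tested genes, and its median was -0.07, against -0.0047 over all tested genes. In 0 of the 10 genes did the 3 exposed libraries lie wholly above or wholly below the 3 controls, whereas 10.7% of all tested genes had such groups.

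**Figure D1:**
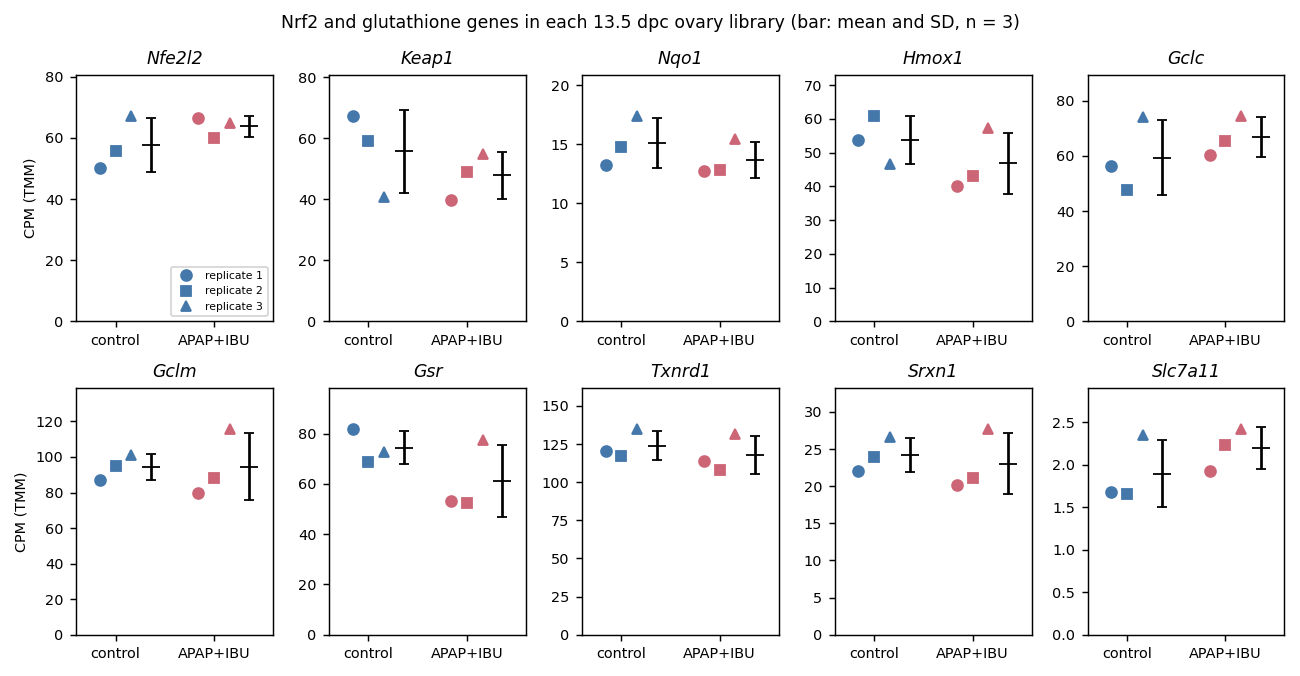
Level of each of the 10 genes in CPM (TMM-normalised, y axis from 0) in each control (blue) and APAP+IBU (red) library, with the replicate number as the symbol and the mean and SD of 3 libraries beside the points. The groups overlap in every panel, and for Gsr the exposed replicates 1 and 2, at 53.2 and 52.3 CPM, lie below the controls while replicate 3, at 77.5 CPM, lies among them.

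The regulators came first. Nfe2l2, which encodes the transcription factor Nrf2 (ENSMUSG00000015839, chromosome 2 of GRCm38 from 75675513 to 75704641), had 50.2, 55.6 and 67.2 CPM in control replicates 1, 2 and 3 and 66.4, 59.9 and 64.8 CPM in APAP+IBU replicates 1, 2 and 3. The exposed libraries were above control replicates 1 and 2, but control replicate 3 was the highest of all. Its log2 fold change was 0.14 (standard error 0.14, 95% interval from -0.18 to 0.47, adjusted p = 0.752 in edgeR's test). Keap1 (ENSMUSG00000003308, chromosome 9 from 21229730 to 21239361) had 67.4, 59.1 and 40.8 CPM in controls and 39.7, 49.0 and 54.7 CPM after exposure. Here control replicate 3 lay near the lowest exposed library, while the other controls were above every exposed library. Its log2 fold change was -0.22 (standard error 0.21, 95% interval from -0.70 to 0.26, adjusted p = 0.742 in edgeR's test). An antisense gene, Gm16754, shares 510 bases of exon with Keap1. Gm16754 had 0.506 to 0.780 CPM.

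The level of Nfe2l2 relative to Keap1, each divided by its exon length, took ratios of 0.921, 1.16 and 2.04 (controls) and of 2.07, 1.51 and 1.47 (exposed). Control replicate 3 thus lay within the range of the exposed libraries. Over the 6 libraries, the log2 CPM of Nfe2l2 was most like those of Nxpe4, Eogt and Tmem167 (Pearson r of 0.996, 0.996 and 0.995) and that of Keap1 most like those of Myo18a, Mrpl57 and Dgkz (0.997, 0.996 and 0.995). These are the highest of 12461 genes over only 6 libraries and are given as a description.

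The first step of glutathione synthesis is catalysed by glutamate-cysteine ligase, whose catalytic subunit is Gclc and whose modifier subunit is Gclm. Gclc (ENSMUSG00000032350, chromosome 9 from 77754535 to 77794485) had 56.1, 47.8 and 74.2 CPM in controls and 60.4, 65.3 and 74.5 CPM in exposed ovaries. Both replicate 3 libraries were the highest and almost equal. For Gclc the log2 fold change was 0.17 (standard error 0.18, 95% interval from -0.24 to 0.58, adjusted p = 0.764 in edgeR's test). Gclm (ENSMUSG00000028124, chromosome 3 from 122245557 to 122270732) had 86.8, 95.2 and 101 CPM in controls and 79.5, 88.3 and 116 CPM after exposure, and the exposed libraries lay on both sides of the controls. Its log2 fold change was 0.0018 (95% interval from -0.37 to 0.37). The exons of Gclm overlap those of Gm17494 on the other strand by 296 bases, at 4.00 to 7.57 CPM, and those of Gm6061 on the same strand by 244 bases, at 1.02 to 2.11 CPM. The ratio of the catalytic to the modifier subunit per exon length was 1.08, 0.839 and 1.22 in controls and 1.27, 1.24 and 1.08 after exposure, with overlapping groups.

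Slc7a11, the cystine importer that feeds glutathione synthesis (ENSMUSG00000027737, chromosome 3 from 49892526 to 50443614), was scarce. It had 64, 62 and 102 counts in controls and 98, 102 and 93 counts in exposed ovaries, or 1.68, 1.66 and 2.35 CPM and 1.93, 2.23 and 2.42 CPM. All exposed libraries were above control replicates 1 and 2, while control replicate 3 lay among them. For Slc7a11 it was 0.21 on the log2 scale (standard error 0.27, 95% interval from -0.40 to 0.82, adjusted p = 0.794 in edgeR's test), the widest interval of the 10 genes. Slc7a11 is known to answer to Atf4, the factor of the amino acid response, as well as to Nrf2. Its promoter is shown because it holds the letters of both elements. The 250 bases before its start (RefSeq, GRCm38.p6, chr3:50443614-50443863, minus strand, printed 5′ to 3′ on the gene's strand) follow, with the matches in capitals.

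Slc7a11: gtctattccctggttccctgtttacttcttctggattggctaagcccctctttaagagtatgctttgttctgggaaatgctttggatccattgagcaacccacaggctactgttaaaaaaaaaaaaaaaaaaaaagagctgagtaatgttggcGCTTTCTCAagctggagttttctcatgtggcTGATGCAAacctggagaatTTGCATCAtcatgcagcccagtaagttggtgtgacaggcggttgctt

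In the order printed, the capitals are 1 match to TGAGNNNGC, a form of the antioxidant response element core, on the strand opposite to the gene, and 2 matches to TGATGCAA, an amino acid response element core, on either strand. Both strands were searched, and no matches overlap here. TGATGCAA occurs in 0.792% of 32817 mouse promoter windows of the same length. Either TGACNNNGC or TGAGNNNGC occurs in 23% of them. Of the 10 genes, 7 had a RefSeq window, and Hmox1, Gclc and Gsr did not. An antioxidant response element core was found for 5 of the 7 genes, which are Nfe2l2, Gclm, Txnrd1, Srxn1 and Slc7a11, and not for Keap1 or Nqo1. Txnrd1 had 3 windows, of which 1 held a match. A match is a description of letters and not of binding.

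The recycling enzymes come next. Gsr, glutathione reductase, returns oxidised glutathione to its reduced form with NADPH (ENSMUSG00000031584, chromosome 8 from 33652523 to 33698163). It had 81.8, 68.8 and 72.6 CPM in controls and 53.2, 52.3 and 77.5 CPM in exposed ovaries. In APAP+IBU replicates 1 and 2 it was below every control library, and in APAP+IBU replicate 3 it was above 2 of the 3 controls. For Gsr the log2 fold change was -0.29 (standard error 0.18, 95% interval from -0.69 to 0.12, adjusted p = 0.698 in edgeR's test, unadjusted p = 0.143), the largest in size of the 10. Txnrd1, the cytosolic thioredoxin reductase and a selenoprotein (ENSMUSG00000020250, chromosome 10 from 82833951 to 82897712), had 120, 117 and 135 CPM in controls and 114, 108 and 132 CPM after exposure. Its log2 fold change of -0.07 had the narrowest interval, from -0.37 to 0.22. The reductases did not keep a fixed ratio, since Txnrd1 per Gsr and exon length ranged from 0.571 to 0.722 in controls and from 0.661 to 0.833 after exposure.

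Srxn1, sulfiredoxin, restores over-oxidised peroxiredoxins (ENSMUSG00000032802, chromosome 2 from 152105516 to 152111376). It had 22.0, 23.9 and 26.6 CPM in controls and 20.2, 21.2 and 27.7 CPM in exposed ovaries, so replicate 3 was the highest library of either group. The log2 fold change was -0.07 (standard error 0.17, 95% interval from -0.47 to 0.32, adjusted p = 0.892 in edgeR's test). Among the 7 genes, Srxn1 alone had more than 1 antioxidant response element core in its window (RefSeq, GRCm38.p6, chr2:152105274-152105523, plus strand), which is shown for that reason with both matches to TGAGNNNGC in capitals.

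Srxn1: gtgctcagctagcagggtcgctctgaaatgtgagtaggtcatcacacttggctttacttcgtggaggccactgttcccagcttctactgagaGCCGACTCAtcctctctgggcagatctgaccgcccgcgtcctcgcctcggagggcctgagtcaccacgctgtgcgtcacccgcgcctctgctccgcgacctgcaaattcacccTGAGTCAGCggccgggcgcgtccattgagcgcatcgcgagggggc

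The first match reads GCCGACTCA and lies on the opposite strand, and the second reads TGAGTCAGC on the gene's own strand, from 45 to 37 bases before the start.

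Nqo1 and Hmox1 are the detoxifying enzymes of the set. Nqo1, the quinone reductase often used to report Nrf2 activity (ENSMUSG00000003849, chromosome 8 from 107388225 to 107403206), had 13.2, 14.7 and 17.4 CPM in controls and 12.8, 12.8 and 15.5 CPM in exposed ovaries. APAP+IBU replicates 1 and 2 were the lowest libraries, by less than the spread among controls. Its log2 fold change was -0.15 (standard error 0.18, 95% interval from -0.55 to 0.26, adjusted p = 0.785 in edgeR's test). Hmox1, the inducible haem oxygenase (ENSMUSG00000005413, chromosome 8 from 75093621 to 75100589), had 53.9, 61.0 and 46.5 CPM in controls and 40.1, 43.2 and 57.2 CPM after exposure. The exposed replicates 1 and 2 were again the lowest, and APAP+IBU replicate 3 lay above 2 of the 3 controls. The log2 fold change was -0.20 (standard error 0.17, 95% interval from -0.60 to 0.20, adjusted p = 0.725 in edgeR's test). Macrophages, which recycle haem, express Hmox1. The 12 macrophage markers, all above 0 in every library, summed to 131, 141 and 128 CPM in controls and to 97.4, 94.4 and 134 CPM in exposed ovaries. Their sum was thus also lowest in APAP+IBU replicates 1 and 2. Of the single markers, Adgre1, Csf1r, C1qb, Fcgr1 and Tyrobp had these libraries lowest, and the others did not. Ptprc and Hpgds were lowest in control replicate 1, Cd68 and C1qc in control replicate 3 and Cx3cr1 in APAP+IBU replicate 3. The part of these cells in the Hmox1 values was not tested.

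Per exon length, the mean level over the 6 libraries was highest for Hmox1 at 28.7 ± 4.73 CPM per kilobase (SD, n = 6 libraries of both groups) and Gsr at 24.6 ± 4.50. Txnrd1 (17.1 ± 1.48), Gclc (16.7 ± 2.78), Nfe2l2 (15.99 ± 1.78) and Gclm (15.0 ± 2.03) followed, and no neighbours among these 4 kept their order in more than 4 of the 6 libraries. Keap1 (11.03 ± 2.30), Nqo1 (9.28 ± 1.19) and Srxn1 (8.36 ± 1.08) came next. Hmox1 was above Gsr, Gsr above Txnrd1 and Nqo1 above Srxn1 in 6 of 6 libraries, although the ranges of each of these neighbours overlapped. Slc7a11 had 0.147 ± 0.0241 CPM per kilobase, at the percentile of 5.84 among 20103 tested genes with a length, whereas the other 9 genes lay at percentiles from 66.2 to 90.7. The exon length of Slc7a11, 13.92 kb over all its transcripts, was the longest of the set and lowers its value on this scale.

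**Figure D2:**
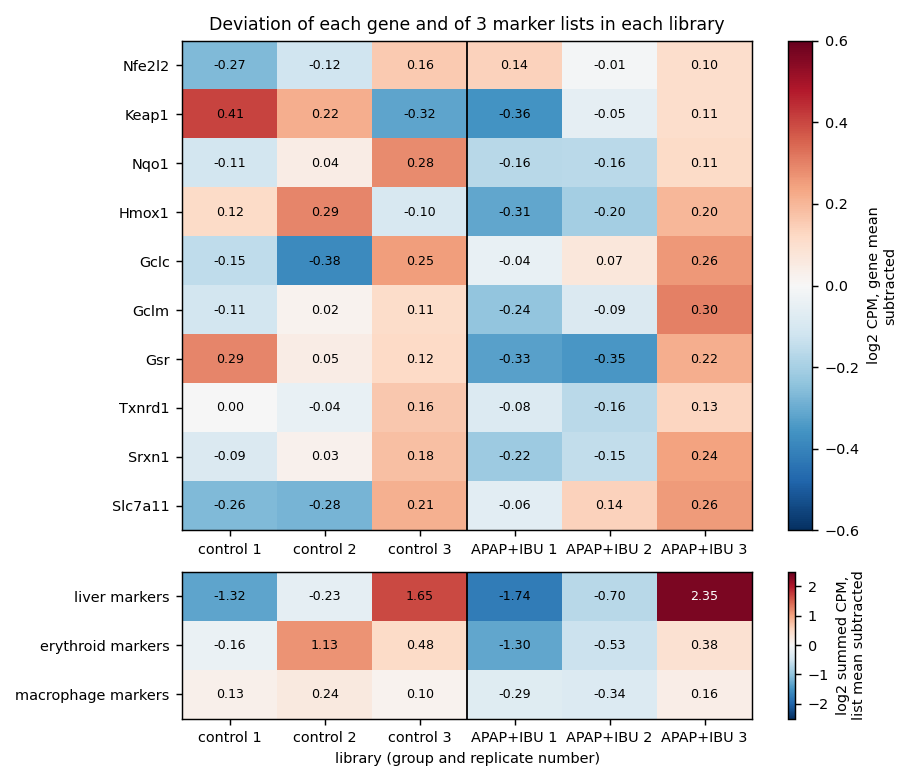
Deviation of each gene's log2 CPM from its mean over the 6 libraries (upper block) and of the summed CPM of 3 marker lists on the log2 scale (lower block), one column per library, red above and blue below the mean. APAP+IBU replicate 3 is above the mean for all 10 genes and control replicate 3 for 8 of the 10, the exceptions being Keap1 and Hmox1.

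Libraries of a group differed among themselves. APAP+IBU replicate 3 was the highest of the 6 libraries for 4 of the 10 genes and control replicate 3 for 3, and neither was the lowest for any. APAP+IBU replicate 1 was the lowest for 5 genes. The replicate 3 libraries are also those with the high liver markers, and the liver expresses many of these genes. The part of liver RNA in these values was not tested.

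With replicates 1 and 2 of each group only, Keap1, Hmox1 and Gsr fell and no gene of the 10 rose. Their log2 fold changes were -0.49 for Keap1 (adjusted p = 0.0293), -0.44 for Hmox1 (adjusted p = 0.0235) and -0.49 for Gsr (adjusted p = 0.0186), all in edgeR's quasi-likelihood test with a standard error of 0.11 to 0.13. In this fit 27.2% of the 20633 genes tested were called, 14.2% as higher and 12.9% as lower, so 3 of 10 is near the share of all genes called. Nfe2l2 was at 0.28 (adjusted p = 0.0992), Gclc at 0.30 (adjusted p = 0.088) and Slc7a11 at 0.34 (adjusted p = 0.413). The log2 fold changes of Nqo1, Gclm, Txnrd1 and Srxn1 lay between -0.13 and -0.08, with adjusted p from 0.457 to 0.617 in edgeR's test. The groups of these 4 libraries did not overlap for 9 of the 10 genes, 3 higher and 6 lower, against 68.5% of all tested genes (34.5% higher and 34% lower). At an unadjusted p under 0.05 there were 5 of the 10 genes, against 41% of all tested genes. DESeq2 with the beta prior called 3 of the 10 in these libraries, against 29.2% of all genes, and 5 at the unadjusted limit, against 37.9%. These 4 libraries were chosen with earlier results of the data known, and with 2 per group the spread rests on few libraries.

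The calls of this fit changed under a correction for gene length and GC content. After each library was corrected for both, Keap1 was at -0.27 (adjusted p = 0.134 in edgeR's test) and Hmox1 at -0.10 (adjusted p = 0.578), and neither was called. Gsr was still called at -0.41 (adjusted p = 0.0431), and Gclm was called lower at -0.50 (adjusted p = 0.0197). Slc7a11 moved from 0.34 to -0.32 (adjusted p = 0.525). With the correction, 13.9% of all tested genes were called, 5.68% higher and 8.23% lower. It left 4 of the 10 genes with an unadjusted p under 0.05 and 6 with groups that did not overlap, against 30.8% and 61.2% of all tested genes. The longest transcript of Keap1 has a GC content of 58.0% and that of Hmox1 53.3%. Those of Gclm and Slc7a11, at 42.1% and 40.7%, were the poorest in GC of the 10. The exon lengths, also used by the correction, were 13.92 kb for Slc7a11, the longest of the 10, and 6.29 kb for Gclm. Keap1 had 4.69 kb and Hmox1 1.75 kb. Srxn1, also at 53.3%, was called in neither fit (adjusted p = 0.457 and 0.728 in edgeR's test). The parts of GC content and of length in the changed calls cannot be told apart here and were not tested. Gsr, at 50.1%, was the only gene of the 10 called lower with and without the correction. Leaving out control replicate 3 alone gave 0 calls among the 10 genes, against 5.16% of all tested genes, with a smallest adjusted p of 0.117 for Gclc. In that fit 3 of the 10 genes had an unadjusted p under 0.05, against 30.5% of all tested genes. The groups then did not overlap for 4 genes, Nfe2l2, Gclc and Slc7a11 higher and Keap1 lower, against 48.6% of all tested genes (23.6% higher and 25% lower). Leaving out APAP+IBU replicate 3 alone gave 0 calls among the 10 genes and 0% among all tested genes. At an unadjusted p under 0.05 that fit had 2 of the 10, Hmox1 and Gsr, against 11.4% of all tested genes, and the groups did not overlap for 6 of the 10, against 33.2%.

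**Figure D3:**
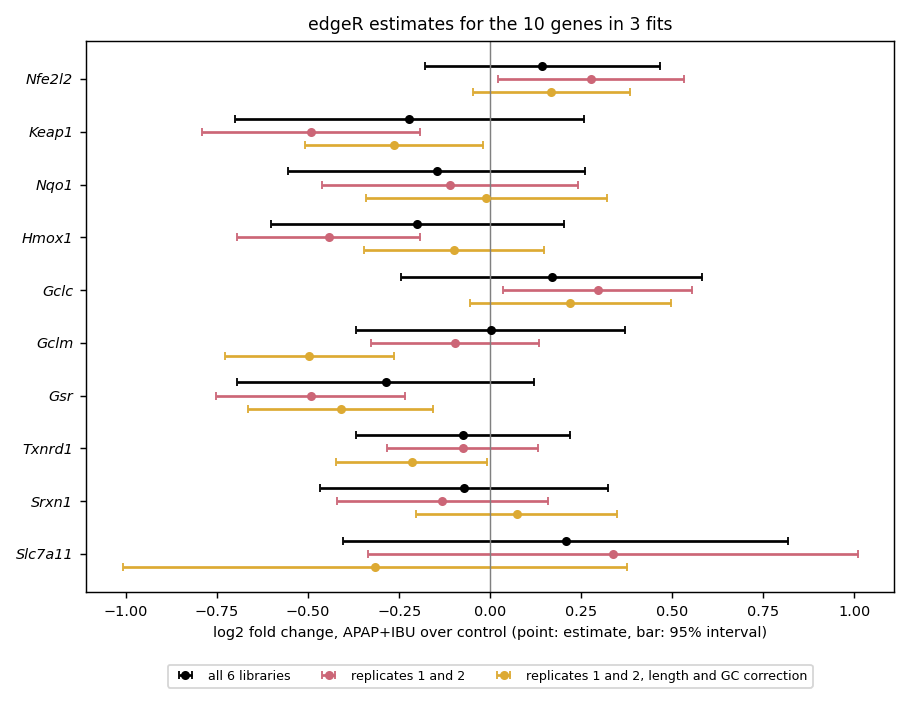
Log2 fold change of APAP+IBU over control with its 95% interval for each of the 10 genes from all 6 libraries (black), replicates 1 and 2 only (red) and the same 4 libraries with the length and GC correction (yellow). The 6-library intervals all include 0, and Gsr lies below 0 in both fits of the 4 libraries, at -0.49 and -0.41.

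The wider pathway was read from 8 lists of 125 genes, of which 124 were tested. Over all 6 libraries, edgeR called 0 of the 124 at the adjusted limit of 0.05 and 4 at the unadjusted one, all of them lower (Rbx1, Gsta4, Gstm5 and Ptgr1), and DESeq2 called 0 at the adjusted limit. These 4 genes are 3.23% of the 124, below the 6.22% of all tested genes. The groups did not overlap for 9 of the 124, or 7.26% (1 higher and 8 lower), also below the 10.7% of all tested genes. Most of these genes had values on the lower side. The log2 fold change was negative for 95 of 124 genes, or 76.6%, with a median of -0.15, whereas 50.6% of all tested genes were negative. The share of negative values was between 75.0% and 79.0% under the other scalings, filters, tools and corrections of the 6 libraries, and between 68.5% and 83.1% with a library left out. The genes are not independent of each other, and the share describes these libraries.

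The lists differed in this. Among the 20 partners and regulators of Nrf2, 11 were positive with a median of 0.02. Mafg, a small Maf partner of Nrf2, had 77.6, 91.6 and 93.1 CPM in controls and 106, 112 and 94.6 CPM in exposed ovaries, and its groups did not overlap (log2 fold change 0.25, adjusted p = 0.692 in edgeR's test). Rbx1, the RING subunit of the Cul3 ligase, was at -0.33 and Park7, a redox-sensitive protein that stabilises Nrf2, at -0.41, with the same adjusted p. With replicates 1 and 2 only, 6 of these 20 genes were higher and 4 lower at an adjusted p under 0.05. That is 50% of the list, against 27.2% of all tested genes. The higher ones included Bach1 (0.42) and Bach2 (0.74), which compete with Nrf2 for its sites, Cul3 (0.45), Mafg (0.39) and Gsk3b (0.69). Rbx1 (-0.49) and Park7 (-0.66) were among the 4 lower ones. After the length and GC correction Bach2, Mafg and Gsk3b were still called higher, while Bach1 was at 0.22 (adjusted p = 0.143 in edgeR's test) and Cul3 turned to -0.14 (adjusted p = 0.454). Rbx1 (-0.82) and Park7 (-0.44) were still called lower.

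Most genes of the glutathione and thioredoxin lists had negative log2 fold changes over the 6 libraries, though none was called. The groups did not overlap for 3 of 35 and 1 of 17, all lower, against 10.7% of all tested genes in either direction. Among the members, Gclc (0.17), Gclm (0.0018) and Slc7a11 (0.21) were positive, and Gsr (-0.29), Txnrd1 (-0.07) and Srxn1 (-0.07) negative. In the glutathione list 8 of 35 genes were positive, and the median was -0.16. The transferase Gsta4 had 52.0, 57.4 and 43.0 CPM in controls and 38.4, 34.7 and 40.4 CPM after exposure (log2 fold change -0.42, unadjusted p = 0.0203, adjusted p = 0.692 in edgeR's test), and Gstm5 (-0.38) likewise had every exposed library below every control. Gstp1, a transferase that can conjugate NAPQI, was at -0.56, with APAP+IBU replicate 3 at 79.3 CPM above control replicate 3 at 63.8 CPM. With replicates 1 and 2 only, 15 of the 35 fell and 1 rose, or 45.7%, against 27.2% of all tested genes. Among those that fell were the synthetase Gss (-0.65), the peroxidases Gpx1 (-0.91) and Gpx4 (-0.77) and the glutaredoxin Glrx5 (-1.01), and the methionine adenosyltransferase Mat2a rose (0.44). After the correction 7 of the 35 fell and 0 rose, or 20%, against 13.9% of all tested genes. Gss (-0.78), Glrx5 (-0.88) and Gstp1 (-0.50) were among these 7, whereas Gpx1, Gpx4, Gsta4, Gstm5 and Mat2a were not called. In the thioredoxin and peroxiredoxin list 1 of 17 genes was positive over the 6 libraries, with a median of -0.25. Prdx1, the most abundant of the 3 named here, had 552, 568 and 521 CPM in controls and 416, 435 and 506 CPM in exposed ovaries, without overlap (-0.27, adjusted p = 0.692 in edgeR's test). Nxn and Prdx4 were at -0.38 and -0.37. With replicates 1 and 2 only, 10 of the 17 fell and 0 rose, or 58.8%, against 27.2% of all tested genes. With the length and GC correction 8 fell, or 47.1%, against 13.9%, Prdx1 at -0.67 and Prdx2 at -0.69 among them.

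Ferritin and Sod1 were highest in control replicates 1 and 2. Fth1, ferritin heavy chain, had 641, 625 and 483 CPM in controls and 313, 372 and 587 CPM after exposure, and Ftl1, the light chain, had 768, 733 and 377 CPM and 303, 396 and 685 CPM. In both genes APAP+IBU replicate 3 was the highest exposed library and control replicate 3 the lowest control, so that the groups overlapped. The porphyrin transporter Abcb6 was at -0.24 over the 6 libraries and at -0.44 in replicates 1 and 2 (adjusted p = 0.0637 in edgeR's test). With replicates 1 and 2 only, Fth1 (-0.87), Ftl1 (-1.08) and the biliverdin reductase Blvrb (-0.98) fell among the 8 genes of haem breakdown and iron storage. All 3 were also called with the length and GC correction. This is 37.5% of the list in either fit, against 27.2% and 13.9% of all tested genes. Ferritin and Blvrb are abundant in red cells and macrophages. The 12 erythroid markers summed to 7060, 17236 and 10987 CPM in controls and to 3191, 5443 and 10241 CPM in exposed ovaries. Among controls, replicate 1 was thus lowest for them and highest for both ferritin genes, while among exposed libraries replicate 3 was highest for both. The part of these cells in the values was not tested. Sod1 had 388, 301 and 164 CPM in controls and 149, 174 and 228 CPM in exposed ovaries. Over the 6 libraries its log2 fold change was -0.63 (adjusted p = 0.692 in edgeR's test), and with replicates 1 and 2 only Sod1 (-1.07) and the extracellular Sod3 (-1.27) fell. The mitochondrial Sod2 had 91.9, 88.6 and 87.1 CPM in controls and 83.7, 94.4 and 84.1 CPM after exposure (-0.03 over the 6 libraries), and it was called lower in replicates 1 and 2 with the length and GC correction (-0.51). Catalase, Cat, was at 0.05 over the 6 libraries and at 0.03 in replicates 1 and 2 (adjusted p = 0.824 in edgeR's test).

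In the NADPH supply list 0 of 9 genes were positive over the 6 libraries. Malic enzyme, Me1, had 79.7, 78.0 and 66.4 CPM in controls and 65.9, 64.8 and 56.8 CPM in exposed ovaries, without overlap (-0.26, adjusted p = 0.692 in edgeR's test), while Pgls (-0.46) and Tkt (-0.31) of the pentose phosphate pathway overlapped between groups. Of the 15 tested quinone, carbonyl and export genes, 6 were positive. Ptgr1, prostaglandin reductase and a known Nrf2 target, had 65.2, 63.3 and 51.0 CPM in controls and 45.0, 47.7 and 48.2 CPM after exposure (-0.35, unadjusted p = 0.0313, adjusted p = 0.692 in edgeR's test). Ugdh was at 0.16 in this list. The exporter Abcc2 had 2.67, 2.27 and 8.49 CPM in controls and 5.38, 5.06 and 10.5 CPM in exposed ovaries, with replicate 3 highest in either group as for the liver markers, and it rose in replicates 1 and 2 (1.10, adjusted p = 0.0162 in edgeR's test) but was not called after the correction (0.75, adjusted p = 0.072). Of the 16 Atf4 amino acid response genes 1 was positive. Slc1a4, a neutral amino acid carrier, was lower without overlap (-0.38), and the groups of Phgdh (-0.35) and Trib3 (-0.52) overlapped. With replicates 1 and 2 only, 8 of these 16 fell, or 50%, against 27.2% of all tested genes. After the length and GC correction 1, Asns, did (-0.58), or 6.25%, against 13.9%.

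Over all 8 lists, 49 genes fell and 8 rose with replicates 1 and 2 only, which is 46.0% of the 124 against 27.2% of all tested genes. With the length and GC correction 32 fell and 4 rose, which is 29.0% against 13.9%. Leaving out control replicate 3 alone left 6 calls, all lower, or 4.84% against 5.16%. The lists were written with earlier results of these data known, and these shares carry no test.

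**Figure D4:**
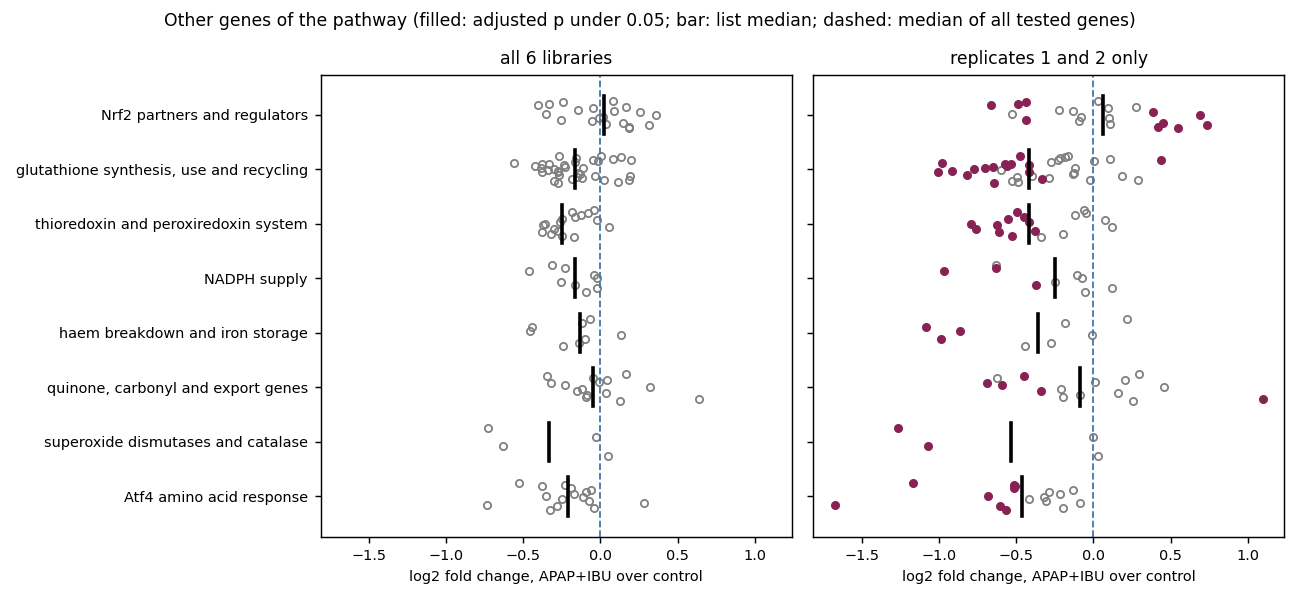
Log2 fold change of APAP+IBU over control for the 124 tested pathway genes in 8 lists, over all 6 libraries (left) and replicates 1 and 2 only (right), with each list's median as a bar, the median of all tested genes as a dashed line and genes with an adjusted p under 0.05 filled. No gene is filled on the left, and on the right 57 are, 49 of them below 0.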

How the data were processed

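Stranded polyadenylated RNA libraries of 6 pools of 13.5 dpc ovaries were mapped by the authors to mm10 with TopHat2 2.0.14 and Bowtie2 2.1.0 and counted per Ensembl gene with HTSeq 0.6.1. The deposited values are raw counts, with no normalisation, in one table, and the strand setting of the counting is not given in the sources used here. Names, positions and lengths came from GENCODE M21 on GRCm38, the assembly of mm10 and a later annotation than the authors' one. All 48709 identifiers were read, and all list symbols matched.

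The counts were TMM-normalised, filtered on expression and tested with the quasi-likelihood test of edgeR 4.0.16 in R 4.3.3, with Benjamini-Hochberg adjustment. The standard error is the log2 fold change divided by the square root of the F statistic. Levels are CPM, and log2 CPM used a prior count of 1. DESeq2 1.42.0, other scalings and filters, a replicate block, a loess correction for length and GC content (span 0.3) and omission of libraries were alternatives. The fit was checked on simulated counts with 200 changed genes, of which 159 were recovered with 6 libraries and 134 with 4. The simulation used the same dispersion for every gene and left out the differences of replicate 3. It therefore cannot show how many changes the real libraries could reveal. With 3 libraries per group an exact permutation test cannot go below 0.1.

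The members, the lists and the choice of replicates 1 and 2 were made with earlier results of these data known. Named genes were the 10 members, the 3 genes of each pathway list with the smallest p over the 6 libraries, and the genes most like Nfe2l2 and Keap1. Other genes named among the calls in replicates 1 and 2 were chosen after their values were seen. Each library comes from its own pool of litters, and p-values measure the spread between pools.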

Additional observations from a re-analysis of the deposited data

How the results depend on the processing

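Among the 10 genes, no alternative that kept all 6 libraries gave a call at an adjusted or an unadjusted p under 0.05, and none of those that rescaled or corrected the levels parted the groups. Leaving out 1 library gave 0 genes called, 0 to 3 at an unadjusted p under 0.05 (3 without control replicate 3, against 30.5% of all tested genes, and 2 without APAP+IBU replicate 3, against 11.4%) and 0 to 6 with groups that did not overlap (4 and 6 without those libraries, against 48.6% and 33.2%). Replicates 1 and 2 alone gave 3 calls in edgeR, 3 in DESeq2 (beta prior) and 2 once corrected for length and GC content. At an unadjusted p under 0.05 these fits gave 5, 5 and 4 genes, against 41%, 37.9% and 30.8% of all tested genes, and the groups did not overlap for 9 genes before and 6 after correction, against 68.5% and 61.2%. Pathway calls numbered 57, 61 and 36 in these fits, in which 27.2%, 29.2% and 13.9% of all tested genes were called. With 1 library left out they numbered 0 to 6, the 6 without control replicate 3.

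Over all tested genes the count of calls, 0 as reported, became 192 in DESeq2 unshrunken, 168 with its beta prior, 120 when every gene with at least 1 count was tested, 2 under the replicate block and 34 under the block plus correction. Omitting 1 library gave 0 to 1064 calls, the most for control replicate 3. For replicates 1 and 2 alone, edgeR called 5607, DESeq2 5794 and the corrected fit 2870. The cause of these changes was not tested. Between libraries of the same number, deviations from the group means had correlations of -0.07 to -0.02. By this measure 0 of the 6 libraries correlated best with their own number. Taken from group means of 3 libraries, it cannot exclude that libraries of the same number share an experiment. Both replicate 3 libraries had high liver markers. The replicate block changed no call among the 10 genes.

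Several log2 fold changes turned sign. Gclm, at 0.0018 over 6 libraries, became -0.028 under upper quartile scaling, -0.0081 under the filter of 10 counts, -0.014 under the replicate block, -0.18 under the correction and -0.21 under both. In replicates 1 and 2 it was -0.097 (edgeR), -0.10 (DESeq2) and -0.50 (corrected), and with 1 library left out it ran from -0.19 to 0.11. Srxn1 became 0.0088 under block plus correction and 0.072 in the corrected replicates 1 and 2, and ran from -0.25 to 0.0087 with 1 library left out. Slc7a11 became -0.090 under the correction, -0.11 under block plus correction and -0.32 in the corrected replicates 1 and 2. Ugdh became -0.014, -0.014 and -0.083 in these 3 fits. With 1 library left out Tkt ran from -0.59 to 0.11 (without control replicate 1) and Cat from -0.12 to 0.15. Slc7a11 had the fewest counts of the 10 genes, 62 to 102 per library, and the largest standard error among them, 0.27.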
